A study of Mus musculus with 9 samples.

Results

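*Adgre1*, which encodes the classical macrophage surface antigen ADGRE1 (EMR1), and 6 other genes by which tissue-resident macrophages are recognized were followed across R3, R2, and R1 cells: *Mertk*, *Axl*, *Vcam1*, *Spic*, *Timd4*, and *Gas6*. The 7 genes were chosen by name, with earlier results of these data known. All 7 are among the 19937 genes measured, each by 1 probe set of an Affymetrix Mouse Gene ST array. The cells were Ly6Chi CD115+ cells sorted from the bone marrow (BM) of C57Bl/6 mice 8 weeks old, at steady state, with no treatment or engineered allele in any group. R3 cells were Flt3+CD11c+ and are called pre-dendritic cells (pre-DCs), R2 cells were Flt3+CD11c-, and R1 cells were Flt3-CD11c-, both called monocytes. There were 3 arrays of each population, 1 from each of 3 label dates, and arrays of a date carry the same replicate number here. The gate left out MHCII+ cells, among which the study places the macrophages of BM. Values are log2 probe set intensities. Nothing in the labels says whether the 3 arrays of a population came from separate mice, so the p-values speak of array-to-array spread, possibly technical.

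ADGRE1 is an adhesion G protein-coupled receptor by which mouse macrophages are commonly stained. MERTK and AXL are receptor tyrosine kinases of the TAM family, which bind GAS6 or protein S as bridges to phosphatidylserine on dying cells, and TIM-4 (*Timd4*) binds phosphatidylserine directly. SPI-C (*Spic*) is an Ets factor that mice need for iron-recycling macrophages of the splenic red pulp, and VCAM-1 is an adhesion molecule that such macrophages carry and that binds α4 integrins.

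Markers of the sorted identities were examined first. A call here means a limma p under 0.05 after Benjamini-Hochberg adjustment over all genes, from 1 fit of the 3 populations. Over all genes, 9.55% were called between R3 and R2, 13.5% between R3 and R1, and 0.391% between R2 and R1. All 5 markers of DC precursors (*Flt3*, *Itgax*, *Zbtb46*, *Siglech*, *Clec9a*) passed this test as higher in R3 against both R2 and R1. The share of all genes that did so was 4.85% against R2 and 6.49% against R1. Of the 5, *Flt3* and *Itgax* encode proteins used for the sort, and the study names *Clec9a* as an R3 gene from these arrays. The list was also chosen with earlier results of these data known, so its result is not an independent check of identity. Of 5 measured monocyte markers, *Itgam* and *Fcgr1* were called lower in R3 in both comparisons, *Csf1r* was called lower in R3 than in R1, and *Cx3cr1* was called higher in R3 than in R2. Between R2 and R1, 1 marker of each list was called: *Itgam* was lower in R2 (-0.58 on the log2 scale, limma adjusted p = 0.0459) and *Clec9a* was higher in R2 (1.87, limma adjusted p = 0.0132). *Ly6c2* has no probe set of its own here, so Ly6C was not checked. Of 8 markers of resident marrow macrophages, *Cd163* was called higher in R3 in both comparisons and *Siglec1* lower in R3 than in R1. The summed linear intensity of the 8 was 444.9 to 521 in R3, 358.3 to 369.1 in R2, and 317.1 to 410.2 in R1. Bright genes weigh most in such a sum, and *Cd163* averaged 7.83 (log2) in R3, 6.41 in R2, and 5.77 in R1. *Siglec1* was lowest in R3, at 5.71, against 6.44 in R2 and 6.71 in R1. The sum does not speak for the whole list, whose median log2 change in R3 was 0.157 from R2 and 0.0231 from R1. Of 7 markers of stroma and endothelium, *Pecam1* alone was called, higher in R3 in both comparisons. Their summed intensities were 892.7 to 1091 for R3, 490.2 to 554 for R2, and 446.3 to 500.1 for R1. *Pecam1* weighs most in these sums, with log2 means of 9.38 (R3), 7.87 (R2), and 7.46 (R1). Median log2 changes over this list were 0.0858 for R3 minus R2 and 0.108 for R3 minus R1, so these sums do not speak for all 7 markers. None of 4 measured erythroid and 2 measured B cell markers was called between any populations. Of each, 1 passed an unadjusted p under 0.05 from limma between R2 and R1, beside 10.7% of all genes. No marker has an intensity of 0, and the part of these cells in the results below was not tested.

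*Adgre1* separated the 3 populations with R3 at the bottom. On probe set 10446282 its log2 intensity was 7.71, 6.98, and 7.04 in R3, against 9.22, 9.29, and 9.18 in R2 and 9.92, 9.92, and 10.04 in R1. The arrays of the 3 populations did not overlap, as was so for 24.8% of all genes between R3 and R2, 24.5% between R3 and R1, and 13.4% between R2 and R1. The means were 7.24 ± 0.41 in R3, 9.23 ± 0.05 in R2, and 9.96 ± 0.07 in R1 (± SD of 3 arrays). R3 stood 3.97-fold below R2, which is -1.99 ± 0.17 on the log2 scale (± standard error; limma adjusted p = 7.99e-05), and 6.58-fold below R1, which is -2.72 ± 0.17 (limma adjusted p = 8.49e-06). On the 3 dates taken singly, R3 minus R2 was -1.51, -2.31, and -2.15, and R3 minus R1 was -2.21, -2.94, and -3.00, so each date gave the same direction. Among genes called lower in R3, 98 of 936 fell by more than *Adgre1* against R2 and 50 of 1399 against R1. In bulk samples, fewer cells with a transcript and less transcript per cell cannot be told apart.

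The step between the monocyte populations was smaller. For *Adgre1*, R2 minus R1 was -0.73 (unadjusted 95% confidence interval -1.11 to -0.35), or 1.66-fold, and it was -0.70, -0.63, and -0.86 on the 3 dates. The difference was not called (adjusted p = 0.136 from limma). *Itgam* and *Clec9a*, markers of monocytes and of DC precursors, were called along the same step in the main fit, and their part in it was not tested. *Adgre1* was called without R3 replicate 1 (adjusted p = 0.029), an array that enters this comparison only through the shared estimate of spread.

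R3 replicate 1 had the highest *Adgre1* of the R3 arrays, and the same array was high in granule genes of maturing neutrophils. *Camp*, an antimicrobial peptide of secondary granules, stood at 10.79, 6.16, and 8.77 in R3 replicates 1, 2, and 3, and *Ltf*, lactoferrin, at 8.92, 4.93, and 7.03. *Ly6g*, another neutrophil marker, stood at 4.87, 4.54, and 4.32. In the same replicate order, *Camp* stood at 8.58, 6.70, and 7.85 in R2 and 6.42, 5.83, and 7.52 in R1. Its replicate 2 was thus lowest in each population. *Ltf* stood at 5.47, 5.27, and 5.25 in R2 and 5.21, 4.83, and 5.60 in R1. Myeloid genes varied too: R3 replicate 1 was the highest R3 array for *Adgre4* (8.00, 6.69, and 6.91), *Apoe* (10.12, 9.04, and 9.09), and *Hmox1* (8.36, 7.85, and 7.52). It was also highest for the marrow macrophage markers *Cd5l* (4.38, 4.05, and 4.18) and *Vsig4* (4.41, 3.58, and 3.15). It was not highest for *Fcgr1* (6.47, 6.36, and 7.79), *Siglec1* (5.48, 5.81, and 5.84), or the other marrow macrophage markers. A link of any of these genes to *Adgre1* on this array was not tested. Of 5 neutrophil markers, *Mpo* and *Elane*, which mark early granules, were called lower in R3 in both comparisons and none was called higher. Of all genes, 4.69% were called lower in R3 than in R2 and 7.02% lower than in R1. Summed intensities of the 5 were 467 to 2772 for R3, 6948 to 10050 for R2, and 4194 to 6305 for R1. Bright genes weigh most here too. *Mpo* had log2 means of 8.01 (R3), 12.33 (R2), and 11.61 (R1), and *Elane* of 7.21, 11.37, and 10.68. For R2 and R1 this sum thus speaks mainly for *Mpo* and *Elane*, and not for *Camp*, *Ltf*, or *Ly6g*. On R3 replicate 1, *Camp* was instead the brightest of the 5. Without R3 replicate 1 the log2 fold change of *Adgre1* was -2.22 against R2 and -2.95 against R1, both called.

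**Figure D1:**
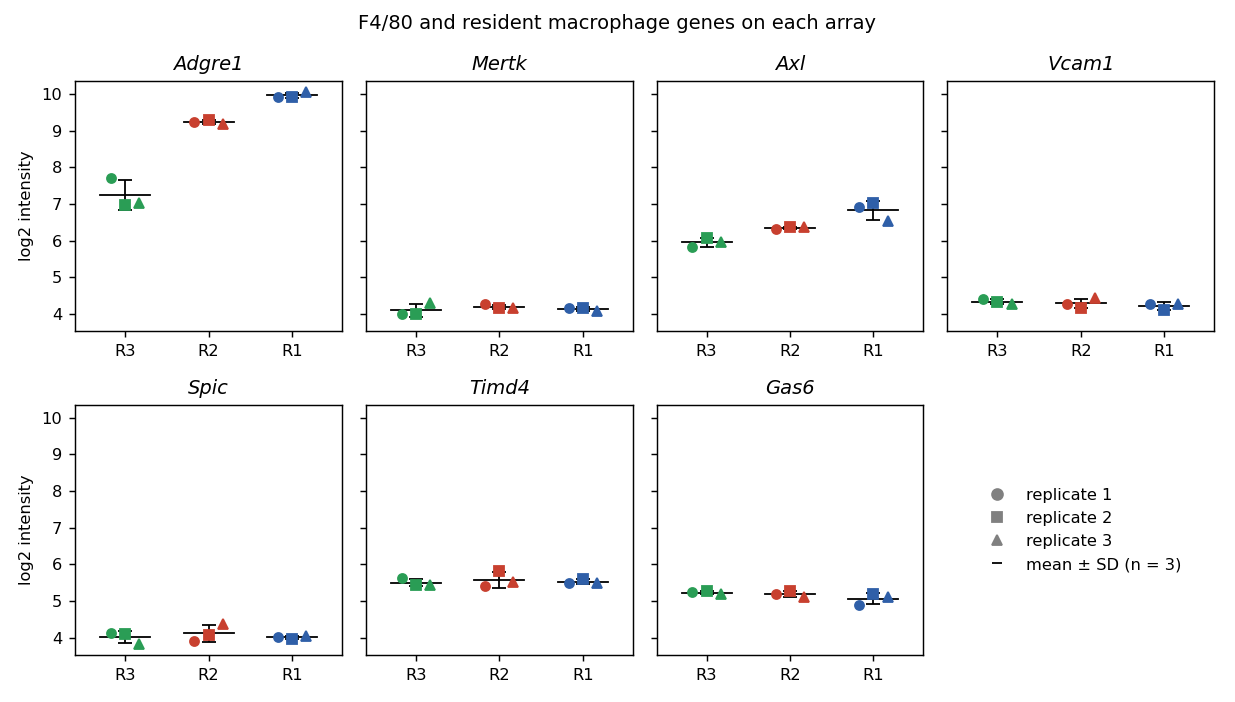
Log2 intensity (vertical axis) of the 7 genes in R3, R2, and R1 (horizontal axis). Points are arrays, their shape gives the replicate number, and bars are the mean ± SD of 3 arrays; *Adgre1* has means of 7.24 in R3, 9.23 in R2, and 9.96 in R1, *Axl* has smaller steps in the same order, and the other 5 genes lie between 3.84 and 5.83 on all 9 arrays.

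*Axl* followed the same order with smaller steps. On probe set 10561104 its log2 intensity was 5.82, 6.08, and 5.97 in R3, against 6.33, 6.36, and 6.36 in R2 and 6.92, 7.01, and 6.54 in R1. The R3 arrays all lay below the R2 arrays, and the R2 arrays all below the R1 arrays. The means were 5.96 ± 0.13 in R3, 6.35 ± 0.02 in R2, and 6.82 ± 0.25 in R1 (± SD of 3 arrays). *Axl* was called lower in R3 than in R1, at -0.87 ± 0.12 on the log2 scale (± standard error; limma adjusted p = 0.00134). On the 3 dates this difference was -1.10, -0.94, and -0.56. *Axl* was not called between R3 and R2, at -0.39 (adjusted p = 0.0886 from limma), or between R2 and R1, at -0.47 (adjusted p = 0.17 from limma). Leaving out the date of replicate 1 ended the R3 against R1 call (adjusted p = 0.0542), as did the unpaired test of the study's methods after adjustment (0.0945). The other 2 differences were called without R1 replicate 3, the R1 array of lowest *Axl* (0.0177 for R3 against R2 and 0.0337 for R2 against R1). R2 replicates 2 and 3 hold exactly the same *Axl* value.

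*Mertk*, the TAM receptor best known from engulfing macrophages, was not called in any comparison. It was at 4.002, 3.99, and 4.30 in R3, against 4.26, 4.16, and 4.16 in R2 and 4.16, 4.16, and 4.08 in R1 (probe set 10475890). The arrays overlapped between each pair of populations. The 250 bases before the start of *Axl* and *Mertk* are shown because these related receptors had different profiles here, and those of *Timd4* because they hold a composite element of the kind at which Ets and IRF factors bind together. Sequences are from RefSeq, and capitals mark matches on either strand to GAGGAA, a purine-rich core of sites of the Ets factor PU.1, to GGGCGG, the GC box, or to the composite element, which is GGAA, any 2 bases, and GAAA. In the sequences shown no match overlaps another.
*Axl*, GRCm38.p6 chr7:25788734-25788983, minus strand: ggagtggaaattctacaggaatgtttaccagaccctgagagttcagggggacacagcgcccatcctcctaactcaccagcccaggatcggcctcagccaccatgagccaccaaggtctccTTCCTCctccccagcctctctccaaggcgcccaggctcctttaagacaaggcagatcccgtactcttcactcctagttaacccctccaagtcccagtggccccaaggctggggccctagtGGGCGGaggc
*Mertk*, GRCm38.p6 chr2:128698665-128698914, plus strand: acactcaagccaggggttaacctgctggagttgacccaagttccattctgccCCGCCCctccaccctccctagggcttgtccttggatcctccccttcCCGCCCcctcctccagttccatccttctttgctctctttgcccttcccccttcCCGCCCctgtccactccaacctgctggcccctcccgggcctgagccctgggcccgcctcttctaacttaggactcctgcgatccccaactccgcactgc
*Timd4*, GRCm38.p6 chr11:46810549-46810798, plus strand: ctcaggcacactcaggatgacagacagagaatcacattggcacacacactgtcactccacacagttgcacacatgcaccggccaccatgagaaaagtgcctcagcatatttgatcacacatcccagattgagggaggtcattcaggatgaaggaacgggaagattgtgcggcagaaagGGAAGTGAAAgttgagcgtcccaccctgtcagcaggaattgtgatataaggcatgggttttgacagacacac
Of the 7 genes, 5 were matched in the RefSeq promoters, and *Adgre1* and *Vcam1* were not. GAGGAA was found in *Axl* alone of the 5 and in 23.3% of 32851 promoters of this length, GGGCGG in *Axl*, *Mertk*, and *Gas6* and in 32.7%, and the composite element in *Timd4* alone and in 2.3%. A match describes the letters in this window only.

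The TAM ligand and the remaining markers showed no called difference. *Gas6* (probe set 10577164) was at 5.25, 5.26, and 5.18 in R3, against 5.18, 5.29, and 5.11 in R2 and 4.89, 5.18, and 5.12 in R1. *Timd4* (probe set 10375472) was at 5.62, 5.44, and 5.44 in R3, against 5.41, 5.83, and 5.51 in R2 and 5.50, 5.60, and 5.49 in R1. The arrays of both genes overlapped between all populations. *Vcam1* (probe set 10501608) was at 4.41, 4.33, and 4.28 in R3, against 4.27, 4.16, and 4.43 in R2 and 4.27, 4.10, and 4.27 in R1. Its R3 arrays all lay above its R1 arrays, by a mean of 0.12 (adjusted p = 0.466 from limma). *Spic* (probe set 10371662) was at 4.13, 4.10, and 3.84 in R3, against 3.92, 4.06, and 4.38 in R2 and 4.02, 3.96, and 4.05 in R1, with overlap throughout.

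For *Mertk*, *Vcam1*, *Spic*, *Timd4*, and *Gas6*, none of the 15 differences was called. The one of largest size was 0.17 on the log2 scale, *Gas6* in R3 over R1, and the smallest adjusted p was 0.308 from limma. The unadjusted 95% confidence intervals of all 15 lie within 1.31-fold of no change in array signal. The means of 12.9% (*Spic*) to 37.9% (*Timd4*) of all genes were lower than theirs. No detection calls were at hand, so whether these 5 signals lie above background was not tested, and a bound on signal is not a bound on transcript number. Exact values recur between arrays: 4 arrays of R2 and R1 share a *Mertk* value, 3 arrays of R2 and R1 a *Vcam1* value, and 3 arrays, 1 of each population, a *Gas6* value.

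Of the 7 genes, 1 was called between R3 and R2 (*Adgre1*, lower in R3), against 9.55% of all genes (4.69% lower and 4.85% higher in R3), 2 between R3 and R1 (*Adgre1* and *Axl*, lower in R3), against 13.5% (7.02% lower and 6.49% higher in R3), and 0 between R2 and R1, against 0.391% (0.181% lower and 0.211% higher in R2). At an unadjusted p under 0.05, *Adgre1* and *Axl* passed between R2 and R1 in limma, both lower in R2, beside 10.7% of all genes, and 2 of the 7 passed in the methods' unpaired test, beside 7.46%. The median log2 fold change of the 7 was -0.09 for R3 against R2, -0.03 for R3 against R1, and 0.06 for R2 against R1, beside -0.0069, -0.02, and -0.02 over all genes. Arrays did not overlap for 2 of the 7 between R3 and R2, against 24.8% of all genes, for 3 of the 7 between R3 and R1, against 24.5%, and for 2 of the 7 between R2 and R1, against 13.4%. The comparisons share arrays, so their calls are not separate evidence.

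**Figure D2:**
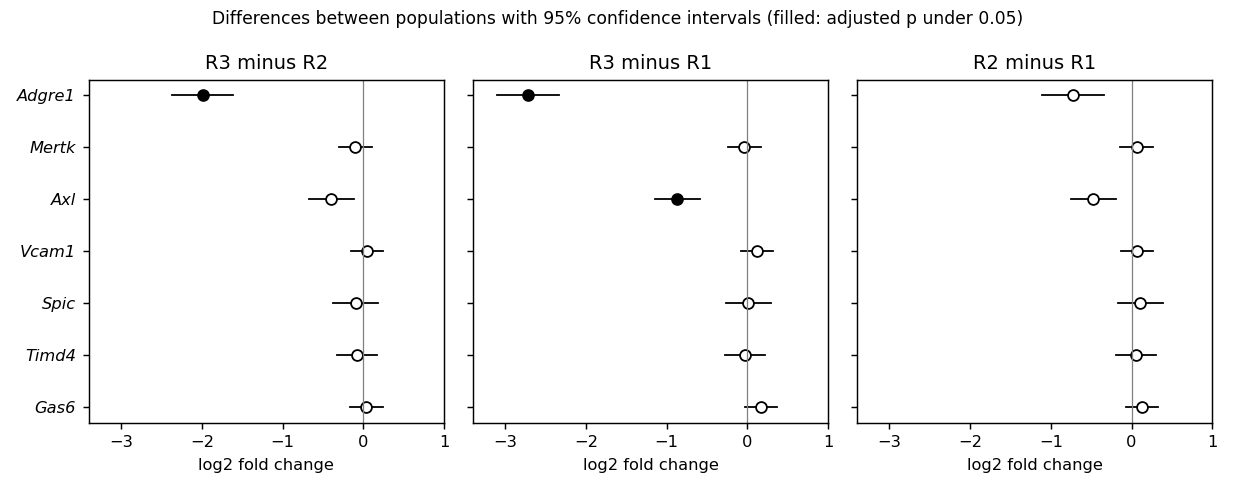
Log2 fold change (horizontal axis) of each of the 7 genes for R3 minus R2, R3 minus R1, and R2 minus R1, with unadjusted 95% confidence intervals from limma and filled points for calls. *Adgre1* lies at -1.99, -2.72, and -0.73 and *Axl* at -0.39, -0.87, and -0.47, and the intervals of the other 5 genes lie within 0.39 of 0.

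Of 5 TAM receptors and ligands, *Axl* alone was called in any comparison, between R3 and R1, where 13.5% of all genes were. *Pros1*, which encodes protein S, averaged 8.60 ± 0.19 in R3, 8.43 ± 0.17 in R2, and 8.93 ± 0.28 in R1 (± SD of 3 arrays), and *Tyro3*, the remaining TAM receptor, averaged 5.62 ± 0.04 in R3, 5.62 ± 0.09 in R2, and 5.62 ± 0.07 in R1. Between R2 and R1, *Axl* and *Pros1* passed an unadjusted p under 0.05 in limma, beside 10.7% of all genes. In the methods' test 1 of the 5 did, beside 7.46%. For *Pros1*, R2 minus R1 was -0.50 (adjusted p = 0.262 from limma). None of 4 genes of the TIM family was called, and 1 passed an unadjusted p under 0.05 from limma, between R3 and R1, where 24.1% of all genes did. *Havcr2*, which encodes TIM-3, averaged 5.36 ± 0.22 in R3, 5.47 ± 0.13 in R2, and 5.81 ± 0.37 in R1.

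Genes of the wider machinery for uptake of dying cells moved in both directions. Of 33 measured genes, calls against R2 were 6 lower and 2 higher, and calls against R1 were 7 lower and 2 higher, all for R3. *Axl*, described above, is on this list and is among the genes called lower in R3 than in R1. Of all genes, 9.55% were called against R2 and 13.5% against R1. *Itgb5*, the β chain of αvβ5, an integrin that binds the bridging protein MFG-E8, averaged 6.56 ± 0.25 in R3, 7.49 ± 0.05 in R2, and 8.03 ± 0.19 in R1 (± SD of 3 arrays). *Lrp1*, an endocytic receptor, averaged 8.41 ± 0.19 in R3, 9.34 ± 0.02 in R2, and 9.78 ± 0.15 in R1. Both were called lower in R3 than in R2 and than in R1, and the call of *Itgb5* against R2 ended with the methods' test after adjustment (0.0625). *Thbs1*, a matrix protein that bridges dying cells to integrins, had log2 fold changes of -1.09 in R3 against R2 and -1.36 in R3 against R1, and *Anxa1*, a phospholipid-binding protein, of -1.13 and -1.18. The call of *Thbs1* against R2 ended on leaving out the date of replicate 2 (adjusted p = 0.111) or of replicate 3 (0.101), and with the methods' test after adjustment (0.0917). *Elmo2*, which acts in RAC activation, and *Abca1*, a lipid exporter, were called higher in R3 in both comparisons. The median of the 33 was 0.00281 against R2 and -0.03 against R1, and none was called between R2 and R1. There 7 passed an unadjusted p under 0.05 in limma, beside 10.7% of all genes, and 4 in the methods' test, beside 7.46%.

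A list of 38 measured resident macrophage genes, which holds the 7, had 7 genes lower and 2 higher among R3 calls against R2, and 10 lower and 1 higher among those against R1. Of all genes, 9.55% were called against R2 and 13.5% against R1. The median was -0.04 against R2 and -0.03 against R1, and none was called between R2 and R1. There 6 passed an unadjusted p under 0.05 in limma, beside 10.7% of all genes, and 7 in the methods' test, beside 7.46%. *Hmox1*, the heme-degrading enzyme of iron-recycling macrophages, was at 8.36, 7.85, and 7.52 in R3, against 9.66, 9.74, and 10.01 in R2 and 10.43, 10.50, and 10.76 in R1. No population overlapped another, as was so for 24.8% of all genes between R3 and R2, 24.5% between R3 and R1, and 13.4% between R2 and R1. Its log2 fold change was -1.89 against R2 (limma adjusted p = 0.000257) and -2.65 against R1 (adjusted p = 2.45e-05 from limma), close in size to those of *Adgre1*. *Trem2*, a lipid-sensing receptor, had a log2 fold change of -1.62 in R3 against R2 (adjusted p = 8.5e-05 from limma), and *Fcgr1*, the high-affinity IgG receptor CD64, of -1.57 against R2 and -2.08 against R1. The *Fcgr1* call against R2 was lost without any 1 of R3 replicate 1, R3 replicate 2, R2 replicate 1, or R2 replicate 3 (limma adjusted p = 0.0724 to 0.113). It was also lost with only the 2 populations compared (0.0746) and on leaving out the date of replicate 1 (0.2385) or of replicate 2 (0.2213). The call against R1 was lost on leaving out the date of replicate 1 (0.0857) or of replicate 2 (0.103). The methods' test after adjustment gave neither call (0.248 against R2 and 0.145 against R1).

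*Cd163*, the scavenger receptor for hemoglobin and haptoglobin, ran the other way. It was at 7.68, 7.99, and 7.82 in R3, against 6.30, 6.46, and 6.46 in R2 and 5.75, 6.07, and 5.51 in R1. The R3 arrays lay above all others, by 1.42 over R2 (adjusted p = 0.000184 from limma) and 2.06 over R1 (adjusted p = 1.42e-05 from limma), while R2 minus R1, 0.63, was not called (0.112). Over all genes, arrays did not overlap for 24.8% between R3 and R2 and for 24.5% between R3 and R1. *Siglec1*, the sialic acid-binding receptor of marrow macrophages, averaged 5.71 ± 0.20 in R3, 6.44 ± 0.05 in R2, and 6.71 ± 0.47 in R1 (± SD of 3 arrays), and its call against R1 (adjusted p = 0.0104 from limma) ended on leaving out the date of replicate 2 (0.105), with only the 2 populations compared (0.0534), and with the methods' test after adjustment (0.215).

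**Figure D3:**
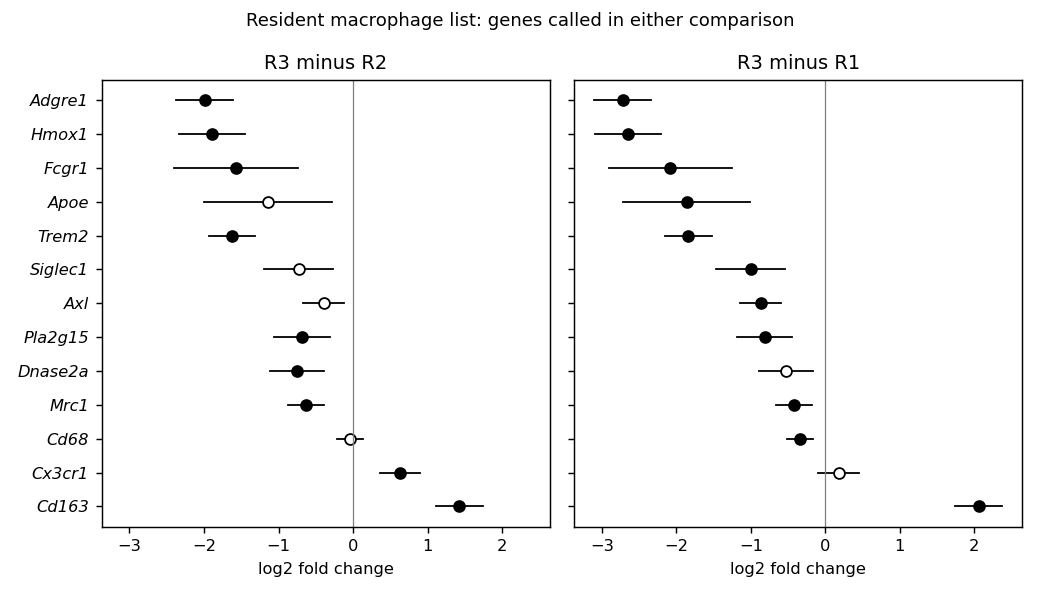
Log2 fold change (horizontal axis) of R3 minus R2 and R3 minus R1 for the resident macrophage genes called in either comparison, with unadjusted 95% confidence intervals from limma and filled points for calls. *Adgre1* (-1.99 and -2.72) and *Hmox1* (-1.89 and -2.65) lie farthest below 0, and *Cd163* lies at 1.42 and 2.06.

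Adhesion G protein-coupled receptors, the family of ADGRE1, moved in both directions. Of 26 measured, R3 gave calls of 5 lower and 3 higher against R2, and of 6 lower and 4 higher against R1. Of all genes, 9.55% were called against R2 and 13.5% against R1. None was called between R2 and R1. There 4 passed an unadjusted p under 0.05 in limma, beside 10.7% of all genes, and 5 in the methods' test, beside 7.46%. *Adgre5*, which encodes CD97, was at 9.36, 8.95, and 9.29 in R3, against 11.21, 11.22, and 11.47 in R2 and 11.32, 11.48, and 11.77 in R1. Its R3 arrays lay below all others, by a log2 fold change of -2.10 against R2 (adjusted p = 2.01e-05 from limma) and -2.32 against R1 (adjusted p = 8.2e-06 from limma), and its R2 and R1 arrays overlapped. Over all genes, arrays did not overlap for 24.8% between R3 and R2 and for 24.5% between R3 and R1. *Adgre4*, another EGF-module receptor of myeloid cells, was at 8.00, 6.69, and 6.91 in R3, against 7.94, 8.34, and 7.76 in R2 and 8.92, 8.67, and 7.98 in R1. Its call against R1 (-1.32, adjusted p = 0.0361 from limma) was lost without any 1 of all arrays but R3 replicate 1 and R1 replicate 3 (0.0518 to 0.123). It was also lost on leaving out the date of replicate 2 (0.3345) or of replicate 3 (0.127) and with only the 2 populations compared (0.106). The methods' test did not give it, before adjustment (0.0554) or after it (0.313).

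*Adgrl2*, a latrophilin, was at 5.66, 5.12, and 4.94 in R3, against 6.97, 7.18, and 6.92 in R2 and 6.31, 6.17, and 6.11 in R1, so that R2 stood highest. R2 minus R1 was 0.83, which was not called (adjusted p = 0.09 from limma) but was with array weights (0.0308). Its probe sets disagreed, since with the mean of all its probe sets R3 minus R2 was -0.06 (adjusted p = 0.822) in place of -1.78 (adjusted p = 0.000145 from limma), and R2 minus R1 was -0.0125. *Celsr1*, an adhesion receptor of planar cell polarity, was 1.23 higher in R3 than in R2 on the log2 scale, and *Adgra2*, which acts in WNT signaling of brain endothelium, was 1.59 higher in R3 than in R1, a call that ended with the methods' test after adjustment (0.0684).

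**Figure D4:**
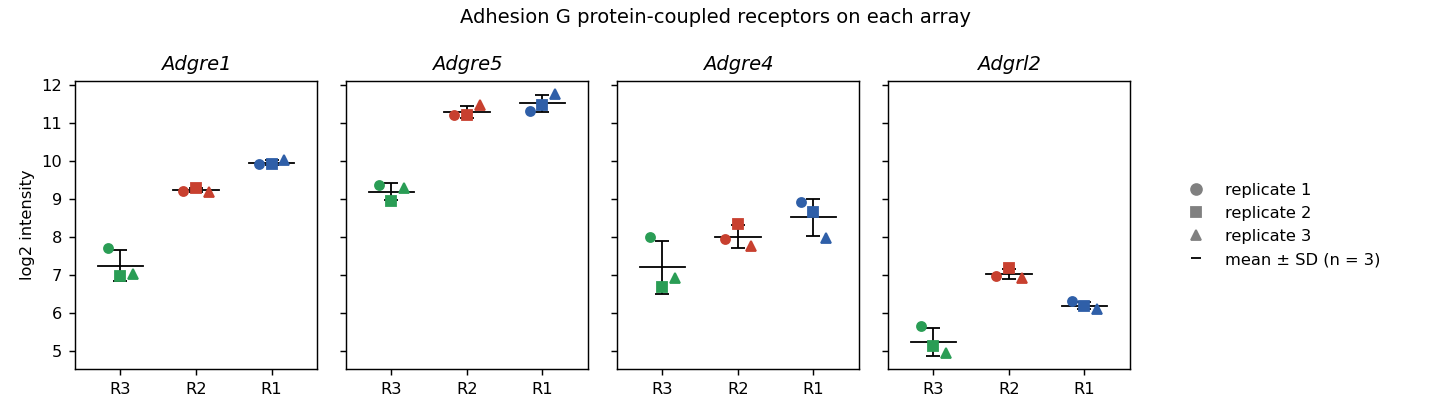
Log2 intensity (vertical axis) of adhesion G protein-coupled receptors in R3, R2, and R1 (horizontal axis), with points for arrays, shapes for replicate numbers, and bars for the mean ± SD of 3 arrays. *Adgre1* and *Adgre5* are lowest in R3, R3 replicate 1 of *Adgre4* lies within the range of R2, and *Adgrl2* is highest in R2.

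Of 4 genes of VCAM-1 counter-receptors, 2 were called against R2, beside 9.55% of all genes, and 3 against R1, beside 13.5%, all for R3. Between R2 and R1 0 were called. There 2 passed an unadjusted p under 0.05 in limma, beside 10.7% of all genes, and 2 in the methods' test, beside 7.46%. *Itgb1* and *Itgb7*, the β chains that pair with α4, had log2 fold changes of 0.59 and 0.74 in R3 against R2 and of 0.46 and 0.53 against R1, all called. *Itga4*, the α4 chain, averaged 10.41 ± 0.10 in R3, 10.67 ± 0.03 in R2, and 10.97 ± 0.09 in R1 (± SD of 3 arrays), and was called lower in R3 than in R1 (-0.56, adjusted p = 0.0012 from limma). The call of *Itgb1* against R1 ended on leaving out any 1 date (adjusted p = 0.05004 to 0.0766). With the methods' test after adjustment, the calls against R1 ended for *Itgb1* (0.109), *Itgb7* (0.0594), and *Itga4* (0.0577). Of 3 Ets factors of the Spi subfamily, *Spib*, known from plasmacytoid DCs and B cells, stood 5.22 above R2 and 5.63 above R1 in R3, on the log2 scale. *Spi1*, which encodes PU.1, averaged 11.74 ± 0.10 in R3, 11.61 ± 0.04 in R2, and 11.64 ± 0.18 in R1, and was not called. These values are of RNA. By intracellular staining, the study found more PU.1 protein in R3 and R2 cells than in R1 cells.

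Of the 7 genes, *Adgre1* alone had population means at least 1 apart on the log2 scale. The 3 genes most like it, by Pearson r of log2 intensity over the 9 arrays, were *Fyb*, an adaptor of integrin signaling, *Slc16a10*, a transporter of aromatic amino acids, and *Clec4a1*, a C-type lectin of myeloid cells, each at 0.992. *Fyb* averaged 9.88 in R3, 10.90 in R2, and 11.28 in R1. *Slc16a10* averaged 7.06 in R3, 8.45 in R2, and 8.86 in R1, and *Clec4a1* 8.61 in R3, 10.52 in R2, and 11.15 in R1. All 3 kept the order of *Adgre1*, and r is a description here, since it spans the differences between populations. *Axl* had an r of 0.843 with *Adgre1*.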

How the data were processed

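The authors deposited a linear intensity for each of 34760 probe sets on 9 arrays. RNA (1 ng a sample) was amplified and biotin-labeled with NuGEN kits. Background correction, summarization, and normalization are not given in the sources used here. Array medians ran from 58 to 64.7, and the number of arrays limits the precision. Of the probe sets, the platform annotation gave 1 gene to 21640, several to 1321, and none to 11799, and 21553 of the first were matched to RefSeq by Entrez ID. Each of 19937 genes was represented by its probe set of highest mean. Log2 intensities were compared in 1 fit of the 3 populations (limma 3.58.1, R 4.3.3, 6 residual degrees of freedom, no filter on dim genes), with Benjamini-Hochberg adjustment over all genes. Tested on simulated arrays of 19937 genes, log2 changes of 1 were recovered for 93% of changed genes in R3 against R2, 93% in R3 against R1, and 91% in R2 against R1. The simulated noise was normal and independent between genes and arrays, at each gene's own spread. These shares check the procedure and do not give its power in the real comparisons.

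The members and lists were chosen with earlier results of these data known. Named genes are the 7 members, their direct partners, and per list and comparison the called genes where at most 6, otherwise the 4 of largest change. *Elmo2*, *Abca1*, *Camp*, *Ltf*, *Ly6g*, *Apoe*, *Cd5l*, *Vsig4*, and further calls of larger lists were named after their values were seen. Replicate numbers pair arrays by label date; deviations from the population means correlated at -0.0244 to 0.152 over the 9 pairs of arrays of a date. The main fit has no block, after the unpaired test of the study's methods. There were 22 alternatives: scaling, offset, probe set choice, dim filter, date block, populations fitted, array weights, the methods' test, and arrays or dates left out.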

Additional observations from a re-analysis of the deposited data

How the results depend on the processing

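*Adgre1* was called lower in R3 under all 22 alternatives, with log2 fold changes of -2.23 to -1.83 against R2 and -2.97 to -2.58 against R1, and *Axl* was called lower in R3 than in R1 under 20 of 22. Members called between R3 and R2 numbered 1, or 2 with only the 2 populations compared, with array weights, and with the methods' test unadjusted (1 to 2 with arrays left out). Between R3 and R1 they numbered 2, or 1 with the methods' test after adjustment (1 to 2 with arrays left out), and between R2 and R1 0, or 2 with the methods' test unadjusted (0 to 1 with arrays left out). With label date as a replicate block, no call of a member changed, and 23 genes in place of 78 were called between R2 and R1. That count was 20 with median centring, 1 with only the 2 populations compared, 343 with array weights, 1 with the methods' test after adjustment, 1488 unadjusted, and 0 to 124 with arrays left out. Between R3 and R1, 2693 genes were called, 658 with the methods' test after adjustment and 1117 to 2843 with arrays left out. Between R3 and R2, 1903 were called, 893 with the methods' test after adjustment, 3460 unadjusted, and 757 to 2183 with arrays left out. The cause of these changes was not tested. Of the 78, 42 were higher and 36 lower in R2, against 7 and 13 with median centring and 67 and 50 with quantile normalization; centring moved the median of all genes to -0.099.

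Small uncalled differences turned sign. With median centring, R2 minus R1 was -0.0198 for *Mertk*, -0.0262 for *Timd4*, and -0.0085 for *Vcam1*, and R3 minus R1 was -0.0168 for *Spic*. With quantile normalization, R2 minus R1 was -0.00901 for *Mertk* and -0.018 for *Timd4*, and R3 minus R1 was -0.0213 for *Spic*. With arrays left out, R3 minus R2 ran from -0.00413 to 0.0857 for *Gas6*, -0.246 to 0.129 for *Spic*, -0.224 to 0.0717 for *Timd4*, and -0.0104 to 0.151 for *Vcam1*. R3 minus R1 ran from -0.166 to 0.031 for *Mertk*, -0.0513 to 0.127 for *Spic*, and -0.0984 to 0.0388 for *Timd4*, and R2 minus R1 from -0.0231 to 0.211 for *Spic* and -0.068 to 0.14 for *Timd4*. The filter on dim genes left 10862 genes, among them *Adgre1* and *Axl* but not the 5 other members. Their signal over background was not measured, which limits these 5. The sign of *Adgrl2* turned with probe set choice, and not from a small value: R2 minus R1 was 0.83 with its probe set of highest mean, against -0.0125 with the mean of its probe sets.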
